A study of Mus musculus with 6 samples.

Results

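Of the 24419 gene symbols in the deposited table, the 7 described here encode subunits of the GABA-A receptor and were taken by name: Gabra2, Gabra3, Gabra4, Gabra5, Gabrb1, Gabrb2 and Gabrg1. Each of the 7 was present, and each passed the filter on low values. RNA was sequenced from 6 libraries of neuron-enriched cells from the cortex of male mice, on day 4 after a middle cerebral artery occlusion of 60 minutes. For each library the tissue was digested with pronase for 75 minutes. The 3 libraries labelled cKO came from Slc17a7-cre; Slc32a1-cre; Padi4flox/flox mice, in which Cre is expressed from the vesicular glutamate and GABA transporter genes, and the 3 labelled control came from Padi4flox/flox mice without Cre. Every mouse therefore carried the loxP-flanked Padi4 allele and had a stroke, and no uninjured group was analysed here. Cells around the infarct were kept when positive for Thy1 and negative for ACSA2, CD31, CD45 and O4, surface markers of astrocytes, endothelium, leukocytes and oligodendrocytes. The labels give neither the age of the mice nor whether animals were pooled.

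The GABA-A receptor is a chloride channel opened by GABA, the main inhibitory transmitter of the brain, and is assembled from several subunits around a central pore. Alpha and beta subunits form the GABA binding sites, and a gamma subunit beside an alpha subunit forms the benzodiazepine site. Receptors at synapses give brief inhibition, whereas receptors outside synapses, in which the alpha 4 and alpha 5 subunits are prominent, give tonic inhibition. Alpha 5 receptors of cortex bordering an infarct have been studied in mice as a brake on recovery after stroke.

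Values are the deposited scaled CPM, which are CPM with a further scaling factor for each library, and they correspond to between 10094145 and 24056755 reads in a library. Padi4, the deleted gene, had 0, 3 and 12 reads in the libraries labelled cKO replicates 1, 2 and 3. It had 0 reads in each of the 3 labelled control. These few reads, at most 0.505 scaled CPM, run opposite to the labels but are too few to check them. Every direction below is that of the labels. The deleted exons are not named in the labels. Neuronal transcripts were present throughout, with 23 pan-neuronal markers summing to 2505, 6381 and 11390 in the libraries labelled cKO and to 4121, 6155 and 4342 in those labelled control. Oligodendrocyte markers summed to more than the neuronal ones in each library, at 12860 to 41330 in the libraries labelled cKO and 24330 to 33330 in those labelled control. In bulk RNA, fewer cells of a type and less RNA per cell cannot be told apart.

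The subunit genes lie in clusters in the mm10 build. Gabrg1, Gabra2, Gabra4 and Gabrb1 lie on chromosome 5 within chr5:70751047-72149037, Gabra5 on chromosome 7 (chr7:57407672-57510059), Gabrb2 on chromosome 11 (chr11:42419757-42629028) and Gabra3 on chromosome X (chrX:72432681-72656848). Gabra4 (chr5:71569749-71658308, minus strand) and Gabrb1 (chr5:71658113-72149037, plus strand) run head to head. In the annotation their exons share 46 bases, so without a stated strand setting a few reads there could belong to either gene. Gabra5 shares 148 exonic bases, 4.98% of its exon length, with the antisense gene Gm9962. Promoter windows of 4 members are shown because their transcripts behaved differently across the libraries: Gabra4 and its head-to-head neighbour Gabrb1, Gabrb2, whose profile was closest to that of Gabra4, and Gabrg1, whose profile was farthest from those of the other 6. Each runs 5′ to 3′ on the gene's own strand across a RefSeq start (GRCm38.p6), with CpG dinucleotides in capitals. The windows are chr5:71658259-71658558 for Gabra4 (minus strand), chr5:71657671-71657970 for Gabrb1 (plus strand), chr11:42420190-42420489 for Gabrb2 (plus strand) and chr5:70842568-70842867 for Gabrg1 (minus strand).
Gabra4: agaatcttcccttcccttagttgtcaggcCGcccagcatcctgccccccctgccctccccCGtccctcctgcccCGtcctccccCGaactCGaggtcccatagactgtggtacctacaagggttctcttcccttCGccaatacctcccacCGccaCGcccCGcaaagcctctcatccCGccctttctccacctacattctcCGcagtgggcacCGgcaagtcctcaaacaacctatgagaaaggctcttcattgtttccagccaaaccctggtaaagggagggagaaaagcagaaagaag
Gabrb1: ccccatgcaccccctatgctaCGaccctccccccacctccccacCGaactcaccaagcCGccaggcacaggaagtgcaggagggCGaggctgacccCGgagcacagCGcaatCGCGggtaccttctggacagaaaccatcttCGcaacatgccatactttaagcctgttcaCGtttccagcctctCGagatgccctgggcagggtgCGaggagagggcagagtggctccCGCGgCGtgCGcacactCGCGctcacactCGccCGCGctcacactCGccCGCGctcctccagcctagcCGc
Gabrb2: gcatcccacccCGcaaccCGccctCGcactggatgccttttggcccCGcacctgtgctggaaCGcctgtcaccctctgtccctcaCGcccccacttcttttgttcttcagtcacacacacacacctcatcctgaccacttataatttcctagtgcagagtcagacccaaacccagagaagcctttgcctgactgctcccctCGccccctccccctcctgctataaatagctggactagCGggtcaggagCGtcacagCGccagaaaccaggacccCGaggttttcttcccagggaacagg
Gabrg1: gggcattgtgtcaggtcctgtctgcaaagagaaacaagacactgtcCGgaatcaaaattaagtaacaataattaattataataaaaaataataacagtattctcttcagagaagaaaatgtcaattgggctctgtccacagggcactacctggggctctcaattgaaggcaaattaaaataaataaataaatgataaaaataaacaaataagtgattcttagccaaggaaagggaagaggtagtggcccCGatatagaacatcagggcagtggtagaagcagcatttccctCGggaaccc

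The Gabrg1 window held 3 CpG dinucleotides and 38.3% G and C, lower than Gabra4 with 12 and 58.7%, Gabrb2 with 11 and 59%, and Gabrb1 with 25 and 66%. The medians over 32851 promoter windows were 7 CpG dinucleotides and 52.7%. The Gabrb2 window held the letters TATAAA beginning 30 bases before the start, a motif found on either strand in 13.6% of all windows. None of the 4 windows held TGACGTCA, TGACTCA, GCGTGGGCG or GCGGGGGCG on either strand, which are in 1.79%, 5.2%, 0.612% and 2.91% of all windows. For Gabrb1 and Gabrb2, RefSeq lists other starts whose windows are not printed. Each held 9 CpG dinucleotides, with 50.3% G and C for Gabrb1 and 54.7% and 41% for Gabrb2. Few CpG dinucleotides were not particular to Gabrg1. Windows of Gabra3, also not printed, held 0 of them, with 43% and 39.3% G and C.

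Per kilobase of exon, Gabrb2 had the highest level of the 7 in each of the 6 libraries, with a mean of 32.2 ± 19.1 scaled CPM per kilobase (SD, n = 6). Gabra3 followed at 14.7 ± 7.36, Gabra4 at 11.3 ± 8.76, Gabra5 at 6.66 ± 4.81 and Gabra2 at 5.50 ± 2.82. Gabrg1 at 1.86 ± 0.844 and Gabrb1 at 1.69 ± 0.869 were lowest. Apart from Gabra2 above Gabrg1, neighbours in this order differed by less than the larger of their SDs over libraries, Gabrb2 and Gabra3 included. Such an SD does not measure the difference within a library, where Gabrb2 was above Gabra3 each time. Below Gabrb2 the order depends on the length used. Per kilobase of coding sequence, Gabra2, at 31.1 ± 15.9 scaled CPM, stood above Gabra5, at 14.2 ± 10.3, by more than either SD, the opposite of their order per kilobase of exon. On the coding scale Gabra4, at 39.8 ± 30.7, also stood above Gabra3, at 36.2 ± 18.1, and Gabrb1, at 16.4 ± 8.46, above both Gabra5 and Gabrg1, the last at 10.5 ± 4.76.

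Among the alpha subunits, Gabra4, which encodes a subunit of extrasynaptic receptors, had 29.4, 31.9 and 173.3 scaled CPM in the libraries labelled cKO and 51.3, 66.6 and 61.4 in those labelled control. The first 2 cKO libraries lay below every control library and the third lay above every one. Gabra5, the alpha subunit of tonic inhibition in hippocampus and cortex, had 7.10, 16.6 and 47.4 scaled CPM in the libraries labelled cKO and 13.0, 21.1 and 13.6 in those labelled control. Its lowest and its highest library were again cKO replicates 1 and 3. Gabra3, an alpha subunit whose gene is on the X chromosome, had 34.5, 46.8 and 109.2 scaled CPM in the libraries labelled cKO and 44.98, 74.3 and 37.2 in those labelled control. Gabra2, the alpha subunit enriched at the axon initial segment of pyramidal cells, had 19.1, 60.2 and 53.3 scaled CPM in the libraries labelled cKO and 29.6, 69.1 and 20.9 in those labelled control. Gabra2 differed from the other alpha genes in that its highest library was control replicate 2, and the groups overlapped for each of the 4.

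**Figure D1:**
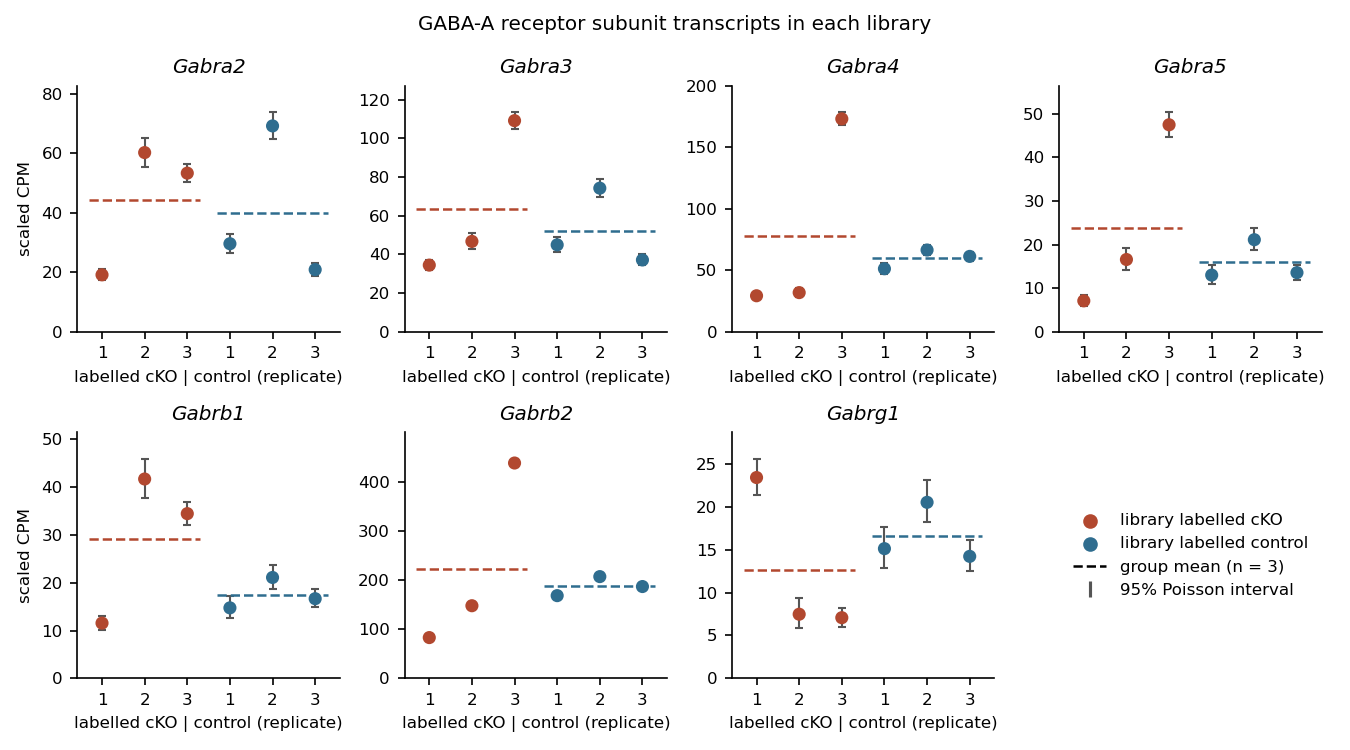
Level of each subunit transcript (scaled CPM, vertical axis from 0) in each library, with those labelled cKO at left and those labelled control at right; bars are 95% Poisson intervals and dashed lines group means of 3 libraries. For 6 of the 7, Gabra2 being the exception, the libraries labelled cKO spread more widely than those labelled control, from 82.9 to 437.7 in cKO against 168.1 to 206.8 in control for Gabrb2, and Gabrg1 was highest where most of the others were lowest.

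Of the beta subunits, Gabrb2, a common beta subunit of cortical receptors, had 82.9, 147.6 and 437.7 scaled CPM in the libraries labelled cKO and 168.1, 206.8 and 186.6 in those labelled control. As for Gabra4, cKO replicates 1 and 2 lay below every control library and cKO replicate 3 above every one. Gabrb1 had 11.6, 41.7 and 34.5 scaled CPM in the libraries labelled cKO and 14.7, 21.1 and 16.7 in those labelled control. Gabrb1 was thus higher in cKO replicates 2 and 3 than in any control library, and lowest of all in cKO replicate 1. Its neighbour Gabra4 was near its own lowest level in cKO replicate 2, the library where Gabrb1 was highest.

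Gabrg1, a gamma subunit gene known from rodents to be expressed in glia as well as in some neurons, had the profile least like the others. It had 23.4, 7.47 and 7.07 scaled CPM in the libraries labelled cKO and 15.1, 20.52 and 14.2 in those labelled control. The highest library was cKO replicate 1, the lowest for each of the other 6 members, and the lowest was cKO replicate 3, the highest for 4 of them. Its smallest count of 74 reads, in cKO replicate 2, was the smallest of any member, with a 95% Poisson interval of 5.87 to 9.38 scaled CPM. That interval covers counting error only and lay below the value of each control library.

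The design asks what changes in neurons near the infarct when Padi4 is deleted. The libraries also held much oligodendrocyte marker RNA, and Padi4 reads were too few to check the labels. In the comparison of the labelled groups, none of the 7 members passed the threshold. Limma on log2(scaled CPM + 1), adjusted over 14796 genes, called 0 of 7 members at an adjusted p under 0.05, with a background of 0% called over all genes. At an unadjusted p under 0.05 it called 0 of 7 against a background of 0.852%, and edgeR and DESeq2 on recovered reads also called 0 of 7. DESeq2 called 1 gene in the whole table (0.00676%), which was not a member, and edgeR called 0, with 41 higher and 32 lower at an unadjusted p under 0.05. In 0 of the 7 members did the groups lie apart without overlap, which occurred in 4.7% of all tested genes.

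Gabrb1 had the largest positive difference, at 29.2 ± 15.7 in the libraries labelled cKO and 17.5 ± 3.26 in those labelled control (SD, n = 3 each). Its log2 fold change of 0.54 had an SE of 0.54 and a limma 95% interval of -0.65 to 1.73 (adjusted p = 0.9996). Gabrg1 had the largest negative one, at 12.7 ± 9.32 in the libraries labelled cKO and 16.6 ± 3.41 in those labelled control, a log2 fold change of -0.55 (SE 0.58, 95% interval -1.83 to 0.73). The other 5 ranged from -0.11 for Gabra4 to 0.20 for Gabra5 in limma. These sizes depended on the method: Gabra5 was at 0.57 in edgeR, 0.54 in DESeq2 and 0.72 with array weights. With array weights Gabra2 was at 0.56 and Gabra3 at 0.68. Gabra4 averaged 78.2 ± 82.4 in the libraries labelled cKO and 59.8 ± 7.74 in those labelled control, and Gabrb2 averaged 222.7 ± 189.0 in the libraries labelled cKO and 187.2 ± 19.4 in those labelled control (SD, n = 3 each), so their group means on the linear scale were higher in the libraries labelled cKO while their log2 fold changes were -0.11 and -0.09. In edgeR on recovered reads these were 0.38 for Gabra4 and 0.25 for Gabrb2. The limma intervals leave room for large changes: for Gabra5 the 95% interval of the fold ran from 0.423 to 3.14. Without cKO replicate 3 the log2 fold change was -0.94 for Gabra4, -0.75 for Gabrb2, -0.47 for Gabra5 and -0.31 for Gabra3, and without cKO replicate 1 that of Gabrb1 was 1.09 and that of Gabrg1 -1.07, none of them past the adjusted threshold in limma.

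**Figure D2:**
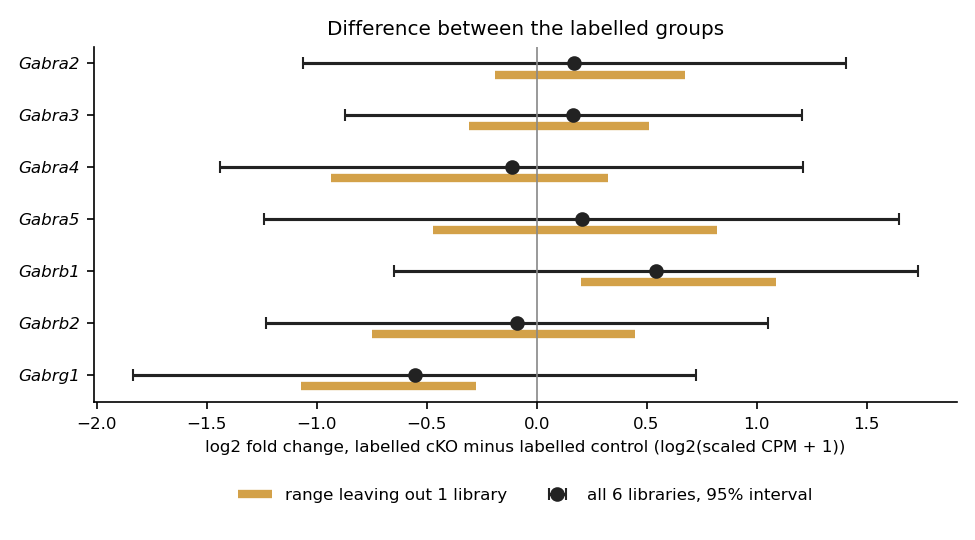
Log2 fold change of each subunit, labelled cKO minus labelled control (horizontal axis), as points with limma 95% intervals over all 6 libraries, and as bars the range of values when 1 library is left out. Every interval includes 0, and the bars of Gabrb1 (0.20 to 1.09) and Gabrg1 (-1.07 to -0.28) stay on 1 side of 0.

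The members varied more among the libraries labelled cKO than among those labelled control on the log2 scale. The SD of the log2 level was larger in the libraries labelled cKO for 7 of 7 members, with medians over members of 0.952 in the libraries labelled cKO and 0.268 in those labelled control. Over all 14796 tested genes it was larger in the libraries labelled cKO for 65.9%, with medians of 0.652 in cKO and 0.468 in control, and for pan-neuronal markers for 23 of 23, with medians of 1.27 in cKO and 0.368 in control. This difference in spread was not tested. Gabrb2 varied 5.28-fold among the libraries labelled cKO and 1.23-fold among those labelled control, and Gabra4 5.90-fold among cKO and 1.297-fold among control libraries. For Gabra2 the SDs were close, at 0.880 in cKO and 0.865 in control libraries, and on the linear scale the SD was smaller in cKO, at 21.98 scaled CPM in cKO and 25.72 in control libraries.

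Neuronal marker levels were lowest in cKO replicate 1, as were 6 of the 7 members, but the 2 did not move together in every library. Relative to their own means over the 6 libraries, pan-neuronal markers stood at -1.08, 0.41 and 1.00 log2 units in the libraries labelled cKO and at -0.42, 0.28 and -0.19 in those labelled control. On the same scale Gabrb2 stood at -1.12, -0.29 and 1.27 in the libraries labelled cKO and at -0.10, 0.19 and 0.05 in those labelled control. In cKO replicate 2 the pan-neuronal markers were above every control library. There Gabra4 (-0.82), Gabra3 (-0.18) and Gabra5 (-0.01) were, like Gabrb2, below their means, whereas Gabra2 (0.68) and Gabrb1 (0.95) were above. In that library GABAergic interneuron markers stood at -0.615 and glutamatergic neuron markers at 0.006. Set against the pan-neuronal mean of the same library, the range over libraries was narrower for each of the 6 members other than Gabrg1, at 0.859 to 1.81 log2 units in place of 1.63 to 2.58. For Gabrg1 it was wider, at 3.68 in place of 1.60. With the pan-neuronal mean as a covariate in limma, log2 fold changes of the 7 members ran from -0.41 to 0.37 and the smallest adjusted p was 0.9997.

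Glial marker levels shared some of their highest and lowest libraries with Gabrg1, Gabra2 and Gabrb1, but not all. The 16 oligodendrocyte markers were highest in cKO replicate 1 and lowest in cKO replicate 3, at 0.78, -0.47 and -0.90 log2 units from their mean in the libraries labelled cKO and 0.41, -0.01 and 0.19 in those labelled control. Gabrg1 stood at 0.76, -0.76 and -0.83 in the libraries labelled cKO and at 0.17, 0.58 and 0.08 in those labelled control, so among the control libraries it was highest in replicate 2, where the oligodendrocyte markers were lowest. The 10 oligodendrocyte precursor markers had the same highest and lowest libraries and summed to 2074 to 3658 in the libraries labelled cKO and 2558 to 2891 in those labelled control. The 15 astrocyte markers, a cell type in which Gabra2 and Gabrb1 are also known to be expressed in rodents, summed to 1442, 2570 and 1187 in the libraries labelled cKO and to 1122, 1392 and 903 in those labelled control. Their highest library, cKO replicate 2, was the highest for Gabrb1 and the highest of the cKO libraries for Gabra2, whereas Gabrg1 was near its lowest there. No marker in these 3 lists was at 0 in all libraries, and their part in the subunit levels was not tested.

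**Figure D3:**
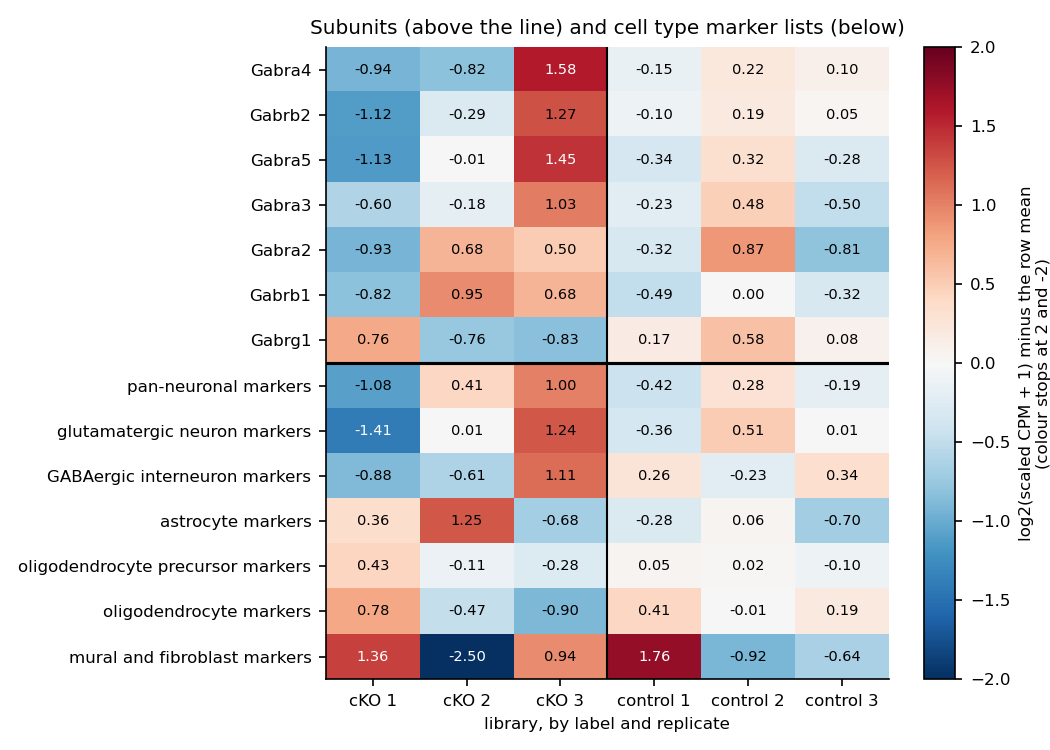
Each row gives log2(scaled CPM + 1) in the 6 libraries minus the row's mean, for the 7 subunits above the line and for the mean of 7 cell type marker lists below it; columns are libraries labelled cKO at left and control at right. Gabra4, Gabrb2, Gabra5 and Gabra3 share their highest library, cKO replicate 3, with the neuronal lists, and Gabrg1 shares its highest and lowest libraries with the oligodendrocyte lists.

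Likeness between profiles was measured as the mean absolute difference, over the 6 libraries, of log2 levels each centred on its own mean. Gabra4 and Gabrb2 were each other's nearest member at 0.192 log2 units although they lie on different chromosomes. Of 11630 compared genes, 7 were closer to Gabra4 than Gabrb2 was, and 28 were closer to Gabrb2 than Gabra4 was. Gabra5 was nearest to Gabrb2 at 0.194, Gabra3 to Gabra5 at 0.266, and Gabra2 and Gabrb1 to each other at 0.347. Closer genes numbered 49 for Gabra5, 252 for Gabra3, 380 for Gabra2 and 989 for Gabrb1, so many genes outside the receptor had profiles nearer to these than any other member had. Gabrg1 was the farthest member from each of the other 6, and its own nearest member, Gabra4, was 0.812 away, more than its median distance of 0.661 to all compared genes. Of the 4 genes of the chromosome 5 cluster, Gabra2 and Gabrb1 were nearest to each other, whereas Gabra4 and Gabrb1, which overlap at their starts, were not.

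The genes with the most similar profiles were named for each member from the whole table. Nearest to Gabra4 were Got1, which encodes cytosolic aspartate aminotransferase (0.151), the glycolytic enzyme gene Tpi1 (0.151) and Serpini1, which encodes neuroserpin (0.158). Napb, which encodes the SNARE disassembly protein beta-SNAP, was nearest to both Gabra5 (0.0675) and Gabrb2 (0.138), with Cck, the cholecystokinin gene, next for Gabra5 (0.0736) and Efhd2 next for Gabrb2 (0.140). For Gabrb2 the third was Amigo1, which encodes an adhesion protein tied to the Kv2.1 potassium channel (0.142), and for Gabra5 Tmem132a (0.0766). Gabra3 was closest to Tspyl4 (0.0916) and the cell adhesion gene Cntnap4 (0.104). Nearest to Gabra2 were Tmem86a (0.129), Rnf165 (0.136) and P4htm (0.142), and nearest to Gabrb1 were R3hdm4 (0.0826) and the RNA-binding protein gene Celf2 (0.0893). Gabrg1 was closest to Fa2h, which encodes the enzyme that hydroxylates fatty acids of myelin lipids (0.0946), Parp11 (0.104) and Hexa, which encodes a lysosomal hexosaminidase subunit (0.122). Fa2h had 291, 90.8 and 94.4 scaled CPM in the libraries labelled cKO and 209, 220 and 169 in those labelled control.

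The mix of subunits within a library does not change when all of them fall evenly, so shares of reads were compared as well. Gabrb2 made up 87.8%, 77.96% and 92.7% of the reads of the 2 beta members in the libraries labelled cKO and 91.9%, 90.7% and 91.8% in those labelled control. The means were 86.1% ± 7.50 in the libraries labelled cKO and 91.5% ± 0.656 in those labelled control (SD, n = 3 each), a difference of -5.35 points with an exact two-sided permutation p of 0.4. The low value was that of cKO replicate 2, and without it the difference was -1.26 points. It was -1.24 points when the reads of each group were pooled and -2.91 points per kilobase of exon.

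Among the reads of the 4 alpha members, Gabra4 made up 32.6%, 20.53% and 45.2% in the libraries labelled cKO and 37.0%, 28.8% and 46.2% in those labelled control. Gabra2 made up 21.3%, 38.7% and 13.9% in the libraries labelled cKO and 21.3%, 29.9% and 15.7% in those labelled control. In both groups Gabra2 had its largest share and Gabra4 its smallest in the library numbered 2. Gabra3 ranged from 28.5% to 38.3% in the libraries labelled cKO and from 27.9% to 32.4% in those labelled control, and Gabra5 from 7.88% to 12.4% in cKO and from 9.13% to 10.2% in control libraries. Over the 5 shares compared, the exact two-sided permutation p ranged from 0.4 to 0.9, each 0.9 after Benjamini-Hochberg adjustment, where the smallest p that 3 against 3 libraries allow is 0.1.

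**Figure D4:**
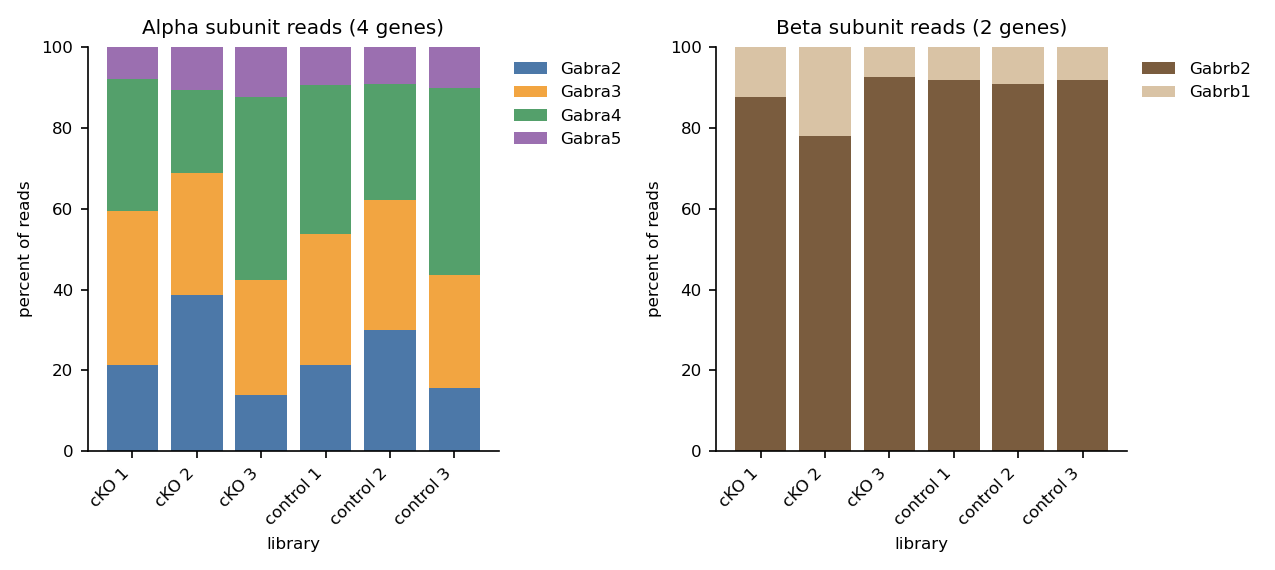
Percent of the reads of the 4 alpha subunit genes (left) and of the 2 beta subunit genes (right) taken by each gene, with libraries labelled cKO left of those labelled control. Gabra2 is largest and Gabra4 smallest in the libraries numbered 2 of both groups, and Gabrb1 is largest in cKO replicate 2, where Gabrb2 takes 77.96%.

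Other genes of GABA signalling, from lists made for this comparison, gave 0 calls in either direction in limma, also at an unadjusted p under 0.05, and 0 adjusted calls in edgeR and DESeq2. Over all tested genes the median log2 fold change was -0.02, and 48% of them had a value above 0. For the 7 members, 4 had a value above 0, with a median of 0.17. Of 9 tested genes of GABA synthesis, transport and breakdown, 7 had a value above 0, with a median of 0.25. The 2 below 0 were those of the synthesis enzymes, Gad1 at -0.31 (SE 0.77) and Gad2 at -0.59 (SE 0.68). Some of the cell type marker lists also leaned between the groups. Above 0 were 14 of 15 astrocyte markers (median 0.59) and 18 of 23 pan-neuronal markers (median 0.21). Below 0 were 14 of 16 oligodendrocyte markers (median -0.28) and 9 of 12 mural and fibroblast markers (median -0.285). Also below 0 were 11 of 16 GABAergic interneuron markers (median -0.32), a list that includes Gad1, Gad2 and Slc32a1. Nearer an even split, 8 of 14 glutamatergic neuron markers (median -0.04) and 5 of 10 oligodendrocyte precursor markers (median -0.01) were below 0. So were 5 of 9 tested microglia markers (median -0.02) and 5 of 11 endothelial markers (median 0.28). The part of these cell types in the values of the GABA genes was not tested. The lowest unadjusted limma p among the genes of GABA synthesis, transport and breakdown belonged to Slc6a11, which encodes the GABA transporter GAT-3 of astrocytes. It had 15.0, 26.0 and 29.3 scaled CPM in the libraries labelled cKO and 9.40, 16.5 and 8.22 in those labelled control (limma log2 fold change 0.99, SE 0.51, adjusted p = 0.9996). The next was Slc32a1, the vesicular GABA transporter gene and a Cre driver locus, at 5.52, 11.8 and 40.4 in the libraries labelled cKO and 11.1, 9.71 and 2.83 in those labelled control, with overlapping groups.

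Of 6 tested GABA-B receptor and auxiliary subunit genes 4 had a log2 fold change above 0, with a median of 0.05. Gabbr1, the subunit of the G protein-coupled receptor that binds GABA, had 244.0, 444.0 and 467.4 scaled CPM in the libraries labelled cKO and 260.0, 432.4 and 266.2 in those labelled control. Kctd8, an auxiliary subunit gene, averaged 3.43 ± 2.27 in the libraries labelled cKO and 4.75 ± 3.53 in those labelled control (SD, n = 3 each). Of 21 tested genes of the inhibitory postsynaptic scaffold and receptor trafficking 12 were above 0, with a median of 0.01. Shisa7, which encodes an auxiliary protein of GABA-A receptors, had 54.02, 209.6 and 148.3 scaled CPM in the libraries labelled cKO and 49.8, 123.9 and 105.4 in those labelled control, with overlapping groups. Trak2, a transport adaptor gene, had 89.8, 286.4 and 159.1 in the libraries labelled cKO and 86.4, 191.5 and 105.8 in those labelled control.

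Chloride transport sets the direction of current through the receptor, and 3 of 10 tested genes of that list were above 0, with a median of -0.16. Oxsr1, a kinase gene acting on chloride cotransporters, averaged 41.3 ± 16.4 scaled CPM in the libraries labelled cKO and 62.5 ± 9.91 in those labelled control (log2 fold change -0.65, SE 0.39, adjusted p = 0.9996 in limma). Wnk1, a kinase upstream of it, averaged 799.9 ± 269.6 in the libraries labelled cKO and 974.7 ± 85.3 in those labelled control. Of 12 GABA-A receptor subunit genes outside the 7 members, 7 were tested, of which 3 were above 0, with a median of -0.19. Gabrq, the theta subunit gene, had 1.39, 0 and 0.463 scaled CPM in the libraries labelled cKO and 0.184, 21.3 and 1.44 in those labelled control, so its level in control rested on replicate 2.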

How the data were processed

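The authors deposited 1 table of gene values. Per the submitters' processing notes, Trimmomatic, HISAT2, featureCounts and edgeR were used with the mm10 build; the notes used here state no versions, strand setting or treatment of multiply mapped reads. The deposited values were handled as a signal, CPM rescaled per library by factors of 0.962 to 1.028, and 100% of values lay within 0.001 of a whole multiple of that library's step, so whole reads were recovered. Nothing in the labels says that libraries of a group are separate animals, and p-values then reflect spread between samples that could be technical. The main test was limma 3.58.1 (R 4.3.3) with a trend on log2(value + 1), which understates changes of low genes. It covered the 14796 genes reaching 1 in 3 or more libraries, with Benjamini-Hochberg adjustment over all of them at 0.05. Alternatives were edgeR 4.0.16 and DESeq2 1.42.0 on recovered reads, other pseudocounts, filters and scalings, array weights, a pan-neuronal covariate, a replicate block and leaving libraries out. On simulated data for this comparison (14577 genes), limma recovered 3 of 50 genes given a 2-fold change, 20 of 50 given 4-fold and 39 of 50 given 8-fold. The simulation drew each gene independently at the spread typical of its level. The members' median SD of log2 level was 0.952 in cKO and 0.268 in control libraries. Over tested genes with a mean of at least 5 it was 0.59 and 0.414. The recovered counts therefore need not hold for the members. Shares used raw reads, since no protein table was used for coding lengths; scaling by exon or coding length was added after seeing the data. Poisson intervals cover counting error only. Exon lengths, positions and overlaps come from GENCODE M21 (mm10) and promoters from RefSeq (GRCm38.p6), where 7 of 7 members matched.

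The members, gene lists and tests were chosen with earlier results of these data known. The text names the members, the 3 genes of most similar profile to each (mean of at least 5, predicted symbols left out), and the 2 genes of smallest unadjusted p in each pathway list. Of the genes this rule takes, 3 are not reported here. Which libraries and marker lists to single out was chosen after their values were seen. So were the 4 printed promoter windows, the further values of Fa2h and the values of Gad1 and Gad2.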

Additional observations from a re-analysis of the deposited data

How the results depend on the processing

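The call count was 0 for the 7 members and for the pathway lists under each alternative run. Over all genes DESeq2 on recovered reads called 1 gene, against 0 under each other setting. Of 126 alternative values of the members' log2 fold changes, 106 kept the sign of the main value. Sizes moved without a change of sign for Gabra5 (0.57 with edgeR, 0.54 with DESeq2 and 0.72 with array weights, against 0.20). With array weights they also did for Gabra2 (0.56, against 0.17) and Gabra3 (0.68, against 0.17). Values under which a sign changed, with no effect on a call, were as follows, and the cause was not tested. With the pan-neuronal covariate Gabra2 was at -0.024 and Gabra5 at -0.044. For Gabra4 and Gabrb2 they were 0.48 and 0.34 with array weights, 0.38 and 0.25 with edgeR, 0.34 and 0.21 with DESeq2, and 0.35 and 0.11 without both libraries numbered 2. Leaving out 1 library at a time gave -0.19 to 0.68 for Gabra2, -0.31 to 0.51 for Gabra3, -0.94 to 0.33 for Gabra4, -0.47 to 0.82 for Gabra5, 0.20 to 1.09 for Gabrb1, -0.75 to 0.45 for Gabrb2 and -1.07 to -0.28 for Gabrg1. The differences in read share without 1 library, in points, ran from -4.73 to 7.68 for Gabra2, -1.53 to 3.36 for Gabra3, -10.7 to 1.59 for Gabra4, -0.29 to 1.96 for Gabra5 and -8.63 to -1.26 for Gabrb2. Pooling a group's reads gave -5.18 for Gabra2, -0.60 for Gabra3, 3.84 for Gabra4, 1.95 for Gabra5 (0.74 unpooled) and -1.24 for Gabrb2 (-5.35 unpooled), scaling per kilobase of exon gave -2.91 for Gabrb2, and leaving out both libraries numbered 2 gave -0.93 for Gabra2.

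The replicate numbers are not stated to mark shared animals or days, so the main test did not take them to pair the libraries. The data do hold a hint of pairing for the libraries numbered 1 and 2, but hardly for those numbered 3. Deviations from the group mean correlated across genes at 0.491, 0.301 and 0.0338 for libraries numbered 1, 2 and 3. Libraries of unlike number correlated at -0.403 to 0.0281. Each library correlated best with its own number, for number 3 by a narrow margin. On recovered reads, a chi-square per gene, which grows with read depth, was lowest for the libraries numbered 1, at 27. For cKO replicate 2 it was 81.21 against control replicate 2, and 145.8 and 130.6 against control replicates 1 and 3. For cKO replicate 3 it was 178.1 against control replicate 3, more than 141.1 and 147.2 against control replicates 1 and 2. With the replicate block limma called 0 genes. With 1 library of each group per number the block cannot move a group difference (Gabrb1 stays at 0.54, the Gabrb2 share at -5.35 points), only its p. The exact p of the share differences under the block was 0.25 for Gabra4 (0.6 without it), 0.5 for Gabrb2 and Gabra5, 0.75 for Gabra3 and 1 for Gabra2, and 0.25 is the smallest that 3 pairs allow. The member with the fewest reads, Gabrg1 in cKO replicate 2, had a Poisson interval of 5.87 to 9.38 scaled CPM, which covers counting error only.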
